A study of Mus musculus with 24 samples.

Results

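The BCL2 family decides whether a mitochondrion releases the proteins that start the caspases, and 10 of its genes were described here across 24 mouse RNA sequencing libraries. The members were chosen by name. They are the anti-apoptotic genes Bcl2, Bcl2l1 and Mcl1, the pore-forming genes Bak1 and Bax, and the BH3-only genes Bcl2l11, Bid, Bmf, Bbc3 and Pmaip1. All 10 were found among the 47069 gene identifiers of the count table, and all 10 were among the 13419 genes with enough counts to be tested. The cells were fetal liver cells (FLCs) of stage E12.5-13.5, which the labels call Gata1s cells. Every library, controls included, came from a mouse strain on the B6J.129(Cg) background with the allele Gt(ROSA)26Sortm1.1, which holds CAG-cas9* and EGFP (Fezh/J), so Cas9 and EGFP are expressed from the Rosa26 locus under a general promoter, and carried the guide transgene sgGata1. A second transgene was either miR-125b or miR-ctrl. Each was sampled on day 2 (doxycycline at 1 µg/mL for 48 h), on day 10 and on day 13 with doxycycline at 1 µg/mL, and on day 13 after doxycycline was withdrawn on day 10. This gave 8 groups of 3 libraries. The series title places the study in megakaryoblastic leukaemia with trisomy and gives ARID3A as what miR-125b targets. The labels do not say whether the replicates came from separate embryos or cultures, so p-values measure only the spread between these libraries. No group was without Cas9, sgGata1 or a second transgene.

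The pore-forming proteins BAX and BAK open the outer mitochondrial membrane and let cytochrome c out. BCL2, BCL-XL (encoded by Bcl2l1) and MCL1 hold them in check, and the BH3-only proteins relay stress signals by binding the anti-apoptotic proteins or by switching on BAX and BAK. In the megakaryocyte lineage BCL-XL and MCL1 keep cells alive, and BCL-XL opposes BAK in setting how long a platelet lives. Several BH3-only genes are under transcriptional control, and Bbc3 and Pmaip1, which encode PUMA and NOXA, are textbook targets of p53. Bak1 is a known target of miR-125b in other cells.

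A microRNA acts mostly through its seed, bases 2 to 8, which pairs with sites in the 3′ UTR of a messenger RNA. The mature mmu-miR-125b-5p of RefSeq (GRCm38.p6) is encoded at Mir125b-1 (chr9:41581940-41581961, plus strand) and Mir125b-2 (chr16:77646279-77646300, plus strand). It is shown because its seed, in capitals, defines the sites searched for.
mmu-miR-125b-5p: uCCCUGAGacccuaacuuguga
The site searched was CTCAGGG, the 7-base match, on the transcript strand, in the longest 3′ UTR annotated for a gene (GENCODE M21, GRCm38). A site was called an 8-base match when it read CTCAGGGA, so the 8-base matches are a subset of the 7-base ones. Of the 10 members, 4 had at least 1 site, namely Bak1, Mcl1, Bcl2 and Bmf. The sites are shown on the transcript strand with the match in capitals, because these members are the ones for which a lower level with miR-125b could be looked for at a site. Coordinates are those of the match.
Bak1 (chr17:27020316-27020323, minus strand): gcggctggactCTCAGGGAttctgagccca
Mcl1 (chr3:95662981-95662988, plus strand): cttacacgtctCTCAGGGAaaaaacatgca
Bcl2 (chr1:106540099-106540105, minus strand): ttcagtgattcCTCAGGGcctgaacttgc
Bmf site 1 (chr2:118532085-118532092, minus strand): caccgcatgggCTCAGGGAttcttactcag
Bmf site 2 (chr2:118532044-118532051, minus strand): ttccggaagacCTCAGGGAgggtcggactt
Bmf site 3 (chr2:118531428-118531435, minus strand): ccgctgcagtgCTCAGGGAgggaacgaaaa
Bmf site 4 (chr2:118530888-118530894, minus strand): caatcatttttCTCAGGGtctataccata

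Bmf had the most sites of the members, with 4 in a 3′ UTR of 3801 bases, of which 3 were 8-base matches. Bak1 had 1 8-base match in 1121 bases, Mcl1 had 1 8-base match in 2353 bases, and Bcl2 had 1 7-base match in 5086 bases. Bcl2l1, Bax, Bcl2l11, Bid, Bbc3 and Pmaip1 had no match in these windows. Over all 21037 genes with an annotated 3′ UTR, 13.1% had at least 1 7-base match and 4.59% an 8-base match, and the median 3′ UTR was 960 bases. Among genes with a 3′ UTR of similar length the share with a 7-base match was 11.8% for Bak1, 22.2% for Mcl1, 34.8% for Bcl2 and 29.3% for Bmf. Arid3a had 6 matches in 3082 bases, 2 of them 8-base matches. A match is a description of the letters and not a measured site.

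**Figure D1:**
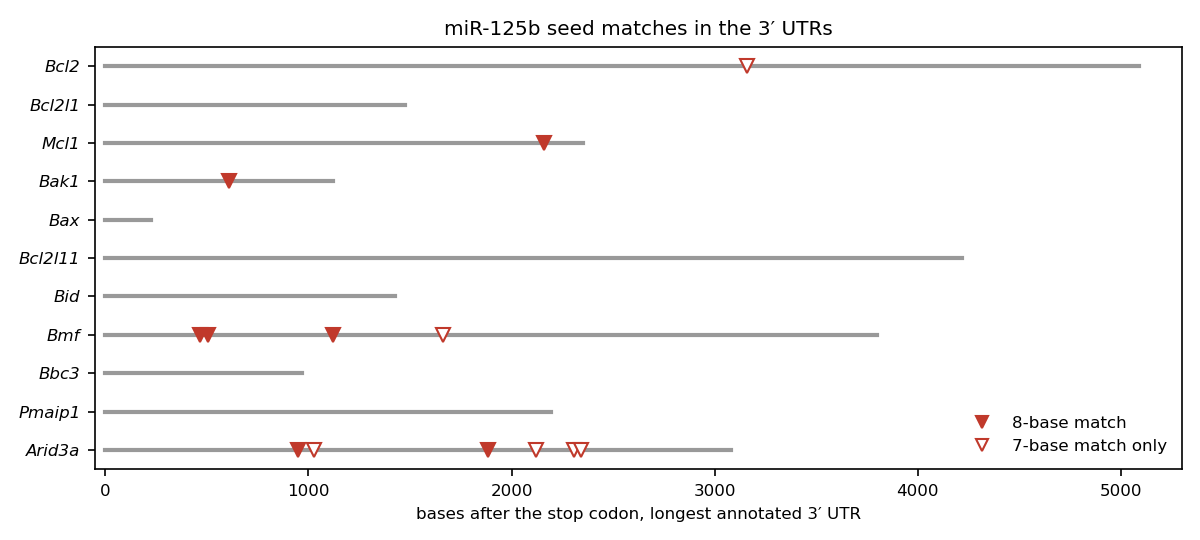
Positions of the miR-125b seed matches along the longest 3′ UTR annotated for each member and of Arid3a, in bases after the stop codon. Filled triangles are 8-base matches and open triangles 7-base matches only, and Bmf carries 4 of the members' 7 sites.

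The libraries held 14694900 to 23755245 counts. Arid3a, read as a check of the labels, was lower with miR-125b on day 2 (-0.81 ± 0.16, log2 fold change ± SE), on day 10 (-0.88 ± 0.16) and after withdrawal (-1.15 ± 0.16). It was nearly level with control in libraries labelled as day 13 under continued doxycycline (-0.22 ± 0.16), which goes against the labels of the doxycycline treatment. The day 13 groups are therefore named by their labels. Arid3a was called on day 10 (edgeR adjusted p 0.0230) and after withdrawal (0.00435) but not on day 2 (0.632). Markers of the megakaryocyte lineage were present, with 8 of 8 genes at a mean of at least 1 CPM (counts scaled to library size with TMM factors) and a summed level of 2793 to 7045 CPM per library. Mast cell and basophil markers summed to 319 to 1418 CPM, erythroid markers to 274 to 620 CPM with Slc4a1 at 0 in all 24 libraries, and hepatocyte markers to 1.36 to 4.56 CPM with Ttr at 0. Neutrophil lineage markers summed to 5.26 to 98.3 CPM, with 2 of 7 genes, Mpo and Prtn3, at a mean of at least 1 CPM. Macrophage markers summed to 6.04 to 33.4 CPM, stromal and endothelial markers to 3.61 to 59.0 CPM, and lymphoid markers to 0.700 to 4.25 CPM. In all, 2 libraries stood apart for the members: control replicate 1 after withdrawal was the highest of all 24 for Bak1 and Bcl2 and the lowest for Bax, Bbc3 and Bid, and miR-125b replicate 3 on day 10 was the highest for Bbc3 and Pmaip1 and the lowest for Mcl1.

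Scaled by length, the pore-forming gene Bax was the most abundant member and the BH3-only gene Bmf the least. Levels between genes are given as RPKM (read counts scaled to library size and to annotated exon length), as mean ± SD over the 24 libraries. Bax stood at 151 ± 23.6 RPKM, with 95.5 to 196 over the libraries, and was above every other member in 24 of 24 libraries. Bbc3 (55.0 ± 16.2), Mcl1 (52.8 ± 4.91) and Bak1 (50.7 ± 4.50) followed and were not separated from each other. Bbc3 was above Mcl1 in 10 of 24 libraries, and Mcl1 was above Bak1 in 17 of 24. Bid, which caspase-8 cleaves to link death receptors to mitochondria, had 24.3 ± 2.72 RPKM and was above Bcl2l1 (17.9 ± 2.93) in 23 of 24 libraries. Bcl2l1 was above Pmaip1 (14.5 ± 4.47) in 18 of 24. Pmaip1 was above Bcl2 (8.88 ± 2.52) in 23 of 24, and Bcl2 was above Bcl2l11, the gene of BIM, in 24 of 24. Bcl2l11 (2.93 ± 0.846) was above Bmf (0.967 ± 0.405) in 24 of 24. The order depends on the exon length used, which covers every annotated exon of a gene (9157 bases for Bcl2 and 2732 for Pmaip1). That length is the same in every library, so these counts of libraries do not test it. In CPM, without the length, Bcl2 had a mean of 81.3 and Pmaip1 39.7, and Mcl1 had 181 and Bbc3 117. The raw counts ran from 28 to 211 for Bmf and from 2366 to 6196 for Bax, so the values of Bmf are the least precise.

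**Figure D2:**
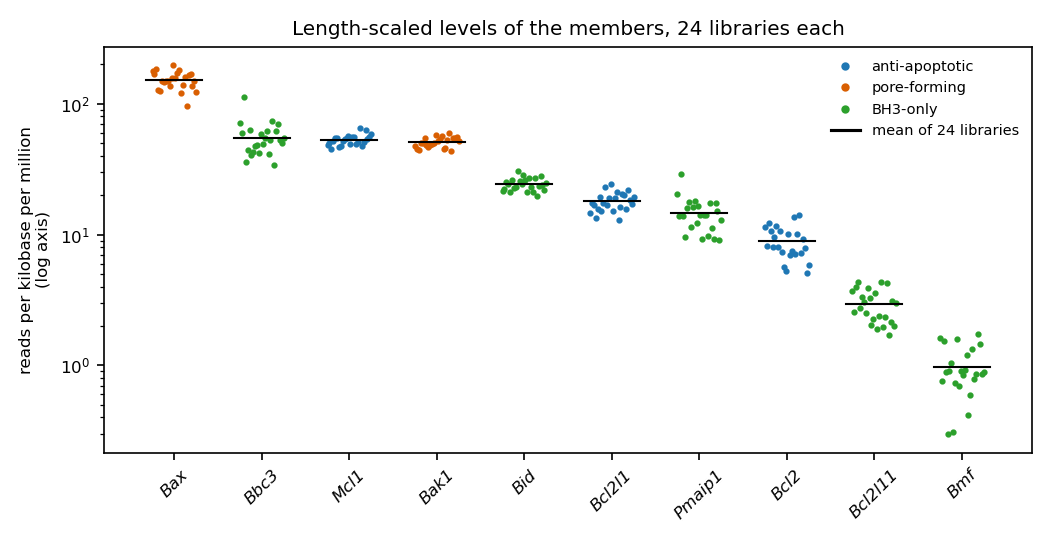
Length-scaled levels of the 10 members in RPKM on a log axis, with 1 point per library and a line at the mean of 24 libraries. Bax lies highest at a mean of 151 and Bmf lowest at 0.967.

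Summed by role, the 2 pore-forming genes held 53.3% ± 2.62 of the members' length-scaled transcripts over the 24 libraries, the 5 BH3-only genes 25.6% ± 2.95 and the 3 anti-apoptotic genes 21.2% ± 2.16. The lowest anti-apoptotic share was in the day 10 miR-125b group, at 17.7% ± 1.90 against 20.0% ± 0.602 in control (SD, n = 3). The same group had the highest mean BH3-only share, which ran from 25.6% to 36.4% against 22.3% to 24.8% in day 10 control. The other control groups reached into that range, up to 27.1% on day 2, 28.3% with continued doxycycline and 27.3% after withdrawal. Bbc3 held most of the BH3-only sum of the day 10 miR-125b group, 80.7 of 130 RPKM, and its 36.4% was replicate 3. The shares of a group were not tested, since they sum values that are described gene by gene below. They also rest on the annotated exon lengths used for the scaling.

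Overlapping annotation touches 4 members. Exons of Bak1 overlap 437 and 177 bases of 2 annotated genes named Ggnbp1 on the opposite strand, exons of Bcl2 overlap 558 bases of D630008O14Rik on the opposite strand, exons of Bid overlap 628 bases of Bcl2l13 on the opposite strand, and exons of Bax overlap 192 bases of Gm45808 on the same strand. The use of strand in counting is not given in the sources used here, so reads of these stretches could not be told apart.

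The 10 members lie on 7 chromosomes. Bcl2 (ENSMUSG00000057329) is at chr1:106538178-106714274, minus strand. Bcl2l1 (ENSMUSG00000007659, chr2:152780668-152831728, minus strand), Bcl2l11 (ENSMUSG00000027381, chr2:128126038-128162547, plus strand) and Bmf (ENSMUSG00000040093, chr2:118528757-118549687, minus strand) share chromosome 2. Mcl1 (ENSMUSG00000038612) is at chr3:95658788-95663176, plus strand, and Bid (ENSMUSG00000004446) at chr6:120891930-120916853, minus strand. Bax (ENSMUSG00000003873, chr7:45461697-45466898, minus strand) and Bbc3 (ENSMUSG00000002083, chr7:16308393-16318205, plus strand) share chromosome 7. Bak1 (ENSMUSG00000057789) is at chr17:27019810-27029009, minus strand, and Pmaip1 (ENSMUSG00000024521) is on chromosome 18.

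For 5 of the 10 members the replicate number divided the libraries more than the groups did. Of the squared deviations of log2 CPM over the 24 libraries, the replicate number held 61.0% for Bid, 58.9% for Bcl2l11, 55.4% for Pmaip1 and 52.7% for Bcl2l1, where the median over all tested genes was 18.3%. Bcl2l11 and Pmaip1 were lowest in replicate 2 in 8 of 8 groups, and Bcl2 in 7 of 8. Bid and Bbc3 were highest in replicate 3 in 8 of 8 groups. Bak1 was the member with the smallest part, 11.8%. The replicate numbers also differed in cell type markers. Summed mast cell and basophil markers were highest in replicate 2 in 8 of 8 groups. Summed erythroid, lymphoid and stromal markers were lowest there in 8 of 8, and megakaryocyte markers were lowest in replicate 1 in 8 of 8. The sums other than the megakaryocyte one rest largely on 1 gene. Over the 24 libraries the median was 427 CPM for Gata2 beside 550 for the mast cell and basophil sum, and 342 for Tfrc beside 484 for the erythroid sum. It was 35.1 for Pdgfrb beside 39.9 for the stromal and endothelial sum, and 1.33 for Cd3g beside 1.70 for the lymphoid sum. The part of cell composition in the members' values was not tested, and in bulk RNA fewer cells of a type and less RNA per cell cannot be told apart. Each result below comes from the fit that ignores the number, so the spread between numbers stays in its error. Because the libraries of a number moved together, a fit that also holds the number was run, called the replicate block. It is added where it changed the call of a member or of a listed gene. The SE of Pmaip1 on day 10 was 0.30 without the block and 0.13 with it.

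**Figure D3:**
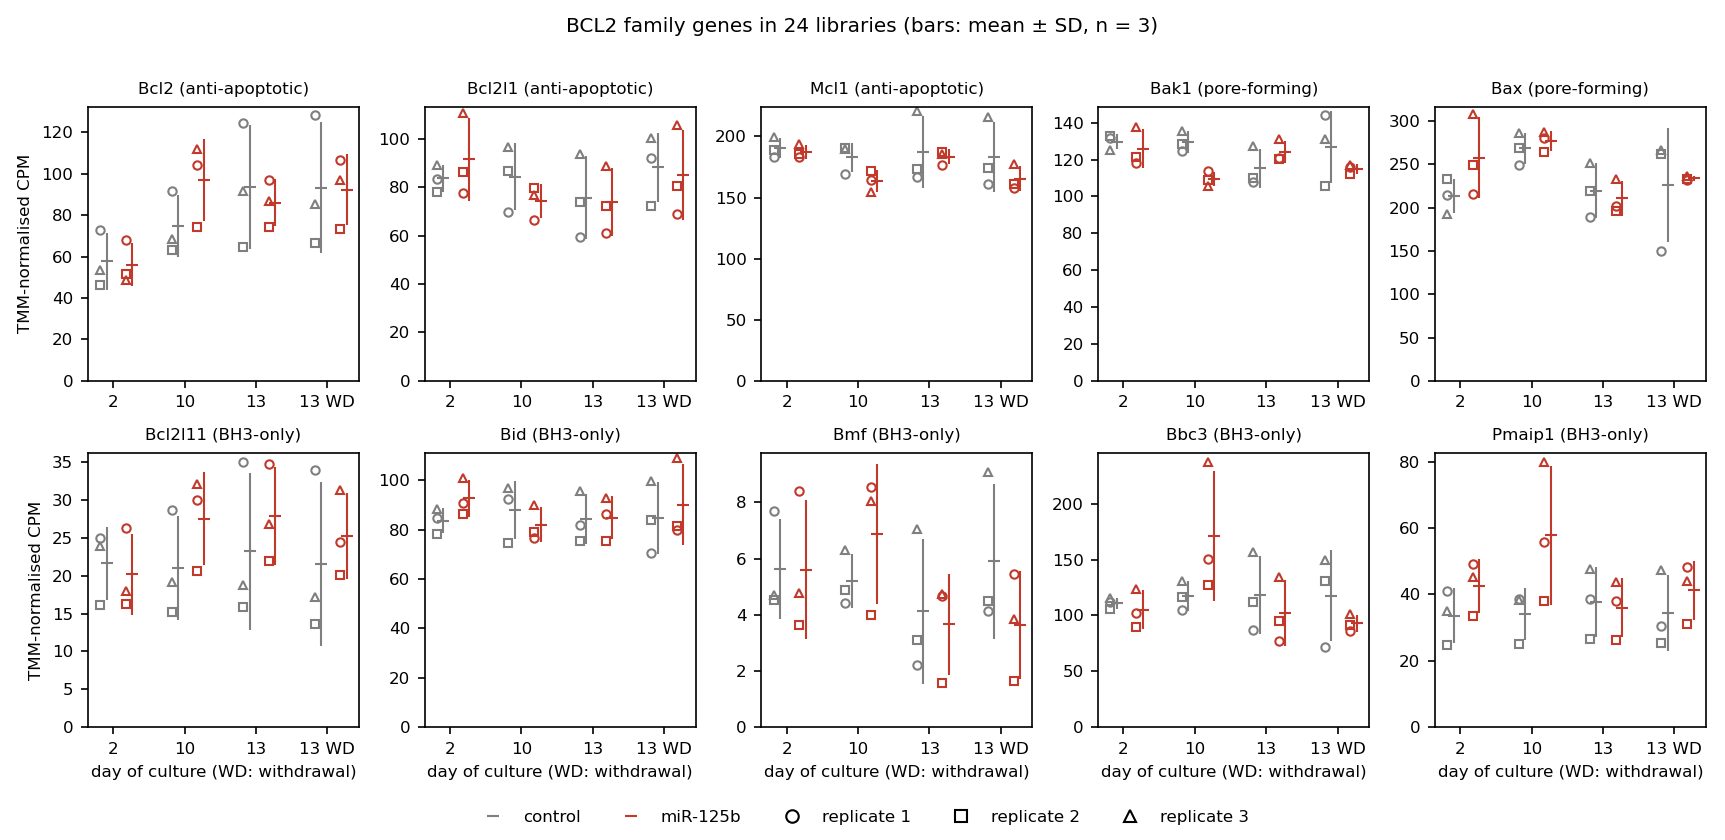
TMM-normalised CPM of each member in each library by day, with control in grey, miR-125b in red, a marker for each replicate number and bars for the mean ± SD of 3 libraries. Replicate 2 is the lowest library of its group for Pmaip1 and Bcl2l11 in all 8 groups, and the day 10 miR-125b libraries of Pmaip1 and Bbc3 reach the highest values.

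The first question of the design is what miR-125b changed at each time. In the edgeR quasi-likelihood fit without the block 0 of the 10 members passed an adjusted p of 0.05 in any of the 4 comparisons of miR-125b with control. The background was 0% of genes called on day 2, 0.872% on day 10, 0% on day 13 with continued doxycycline and 0.119% after withdrawal. At an unadjusted p under 0.05 the members numbered 0 on day 2 (background 5.28%), 2 on day 10 (17.4%, Bak1 and Pmaip1), 0 on day 13 with continued doxycycline (2.89%) and 0 after withdrawal (8.55%). With the replicate block the members at an unadjusted p under 0.05 numbered 1 on day 2 (9.16% of genes, Pmaip1), 5 on day 10 (25.5%, Bak1, Bcl2, Bcl2l11, Bbc3 and Pmaip1), 0 with continued doxycycline (6.37%) and 1 after withdrawal (15.6%, Pmaip1). DESeq2 called 0 members in the same 4 comparisons. Groups that did not overlap numbered 0 members on day 2 (12.3% of genes), 1 on day 10 (19.7%), 0 with continued doxycycline (8.52%) and 0 after withdrawal (11.4%). Members with the same direction in 3 of 3 pairs numbered 4 on day 2 (36.0% of genes), 7 on day 10 (46.9%), 3 with continued doxycycline (32.5%) and 1 after withdrawal (31.7%). With the replicate block 2 members were called on day 10, Bcl2 and Pmaip1, both higher, where 8.63% of all genes were called. The block called 0 members on day 2 (background 0%), 0 with continued doxycycline (0.0149%) and 0 after withdrawal (1.86%). The median log2 fold change of the 10 members was 0.21 on day 10, beside 0.0042 over all genes tested, and it was -0.017 on day 2, -0.046 on day 13 with continued doxycycline and -0.032 after withdrawal.

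**Figure D4:**
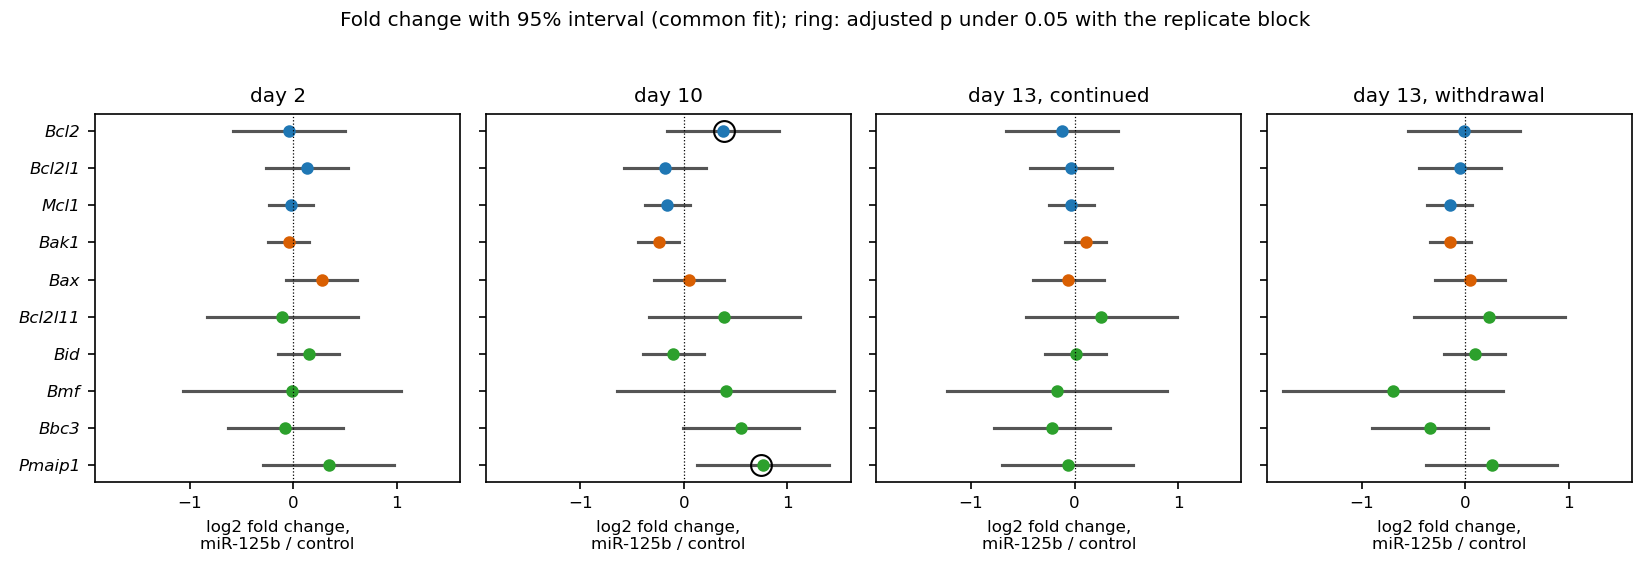
Log2 fold change of miR-125b over control for each member in the 4 conditions, with 95% intervals from the fit without the replicate block, coloured by role (blue anti-apoptotic, orange pore-forming, green BH3-only). Rings mark the 2 values called with the replicate block, Bcl2 and Pmaip1 on day 10.

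Among the anti-apoptotic genes Bcl2 was the one with a call, in the blocked fit alone. On day 10 it had 104, 74.5 and 112 CPM in miR-125b replicates 1 to 3 and 91.6, 63.4 and 68.7 in control. The groups overlapped, and miR-125b was higher in 3 of 3 pairs of the same number. The log2 fold change was 0.38 ± 0.26 (edgeR adjusted p 0.492) without the block and 0.38 ± 0.12 (adjusted p 0.0493) with it. With the block and without miR-125b replicate 3 of day 10 it was 0.24 (adjusted p 0.377), and leaving out all libraries of replicate number 1, 2 or 3 gave 0.47, 0.46 and 0.21 (adjusted p 0.0837, 0.0544 and 0.665). The call of Bcl2 thus held in none of these 4 fits. On day 2 Bcl2 differed by -0.043 ± 0.26, on day 13 with continued doxycycline by -0.12 ± 0.26 and after withdrawal by -0.012 ± 0.26. The last value was 0.29 ± 0.26 without control replicate 1 of that group, which had 128 CPM beside 66.3 and 85.2. Its 3′ UTR holds a 7-base match, and in none of these 4 comparisons was Bcl2 lower by more than its SE.

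Bcl2l1, the gene of BCL-XL, ran between 59.3 and 111 CPM over the 24 libraries. Its differences lay between -0.18 ± 0.19 on day 10 and 0.13 ± 0.19 on day 2, and their 95% intervals reached from -0.58 to 0.53 over these 2 comparisons. On day 10 it was lower with miR-125b in 3 of 3 pairs, at 66.4, 79.5 and 76.9 CPM against 69.6, 86.8 and 96.7, with overlapping groups.

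Mcl1, which codes for a short-lived protein, was one of the 2 steadiest members, at 154 to 221 CPM. With miR-125b it was lower in 3 of 3 pairs on day 2, on day 10 and after withdrawal. With continued doxycycline it was higher in 2 of 3 pairs. The differences were -0.023 ± 0.10 on day 2, -0.16 ± 0.10 on day 10, -0.032 ± 0.10 with continued doxycycline and -0.15 ± 0.10 after withdrawal. The last value was -0.017 without control replicate 3 of that group, which had 216 CPM beside 161 and 174. Without control replicate 1 of that group, at 161 CPM, it was -0.23 ± 0.11 (edgeR adjusted p 0.359). Averaged over the 4 conditions the log2 fold change was -0.092 with a 95% interval of -0.20 to 0.016 (edgeR adjusted p 0.525). Without control replicate 1 of the withdrawal group this mean was -0.11 ± 0.049. The 95% intervals of the single conditions reached lower than that of the mean, to -0.38 on day 10 and -0.37 after withdrawal. Mcl1 carries an 8-base match, and the part of that site in these values was not tested.

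Of the pore-forming genes, Bak1 carries an 8-base match and was the one member whose day 10 groups did not overlap. On day 10 it had 114, 109 and 106 CPM with miR-125b and 124, 128 and 136 in control. Every miR-125b library lay below every control library, as was so for 19.7% of all genes in 1 direction or the other. The log2 fold change was -0.24 ± 0.095, with a 95% interval of -0.44 to -0.045, an unadjusted p of 0.0186 and an edgeR adjusted p of 0.183. With the block it was -0.24 ± 0.089 and the adjusted p was 0.0882. Over the 6 fits that left out 1 library it ran from -0.27 to -0.21. At the other times Bak1 differed by -0.045 ± 0.095 on day 2, 0.11 ± 0.095 on day 13 with continued doxycycline and -0.14 ± 0.095 after withdrawal. The value after withdrawal leaned on control replicate 1, which had 144 CPM beside 106 and 131 in the other two libraries, and without it the difference was -0.042 ± 0.093. Averaged over the 4 conditions Bak1 differed by -0.081 with an interval of -0.18 to 0.018 (edgeR adjusted p 0.545).

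Bax was higher in 3 of 3 pairs on day 2, at 215, 249 and 309 CPM against 214, 233 and 193 in control. The groups overlapped and the log2 fold change was 0.27 ± 0.16 (edgeR adjusted p 0.978). On day 10 it differed by 0.048 ± 0.16, with continued doxycycline by -0.060 ± 0.16 and after withdrawal by 0.046 ± 0.16. The last value became -0.18 ± 0.13 without control replicate 1 of that group, which had 150.4 CPM beside 262 and 267.

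Pmaip1, the gene of NOXA, which binds MCL1, was the BH3-only member with the largest difference on day 10. It had 55.7, 38.0 and 79.8 CPM in miR-125b replicates 1 to 3 and 38.7, 25.1 and 38.3 in control. Replicate 2 was the lowest of both groups, so the groups overlapped, while miR-125b was higher in 3 of 3 pairs. The log2 fold change was 0.77 ± 0.30 (edgeR adjusted p 0.195) without the block and 0.74 ± 0.13 (adjusted p 0.00249) with it. With the block the call held without replicate number 1 (0.84, adjusted p 0.0130) and without number 2 (0.80, 0.0145), and also without miR-125b replicate 3 of day 10 alone (0.59, 0.0455), but not without all libraries of number 3 (0.56, 0.157). Neutrophil lineage markers, 2 of 7 at a mean of at least 1 CPM, were also higher with miR-125b in 3 of 3 pairs on day 10. They summed to 98.3, 29.4 and 63.9 CPM with miR-125b and 23.1, 5.58 and 31.1 in control. The lowest miR-125b library was replicate 2 for these markers and for Pmaip1, and the highest was replicate 1 for the markers and replicate 3 for Pmaip1. Elane, S100a8, S100a9 and Ltf had medians of at most 0.123 CPM over the 24 libraries. Stromal and endothelial markers were also higher in 3 of 3 pairs, and mast cell and basophil markers were lower in 3 of 3. Neutrophil lineage markers were higher with miR-125b in 3 of 3 pairs on day 2 as well (mean 46.6 against 26.1 CPM) and in 3 of 3 after withdrawal, with no overlap (51.1 against 24.5), and in 2 of 3 with continued doxycycline (31.7 against 22.9). The part of these markers in the values of Pmaip1 and the other members was not tested.

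On day 2 Pmaip1 had 49.1, 33.5 and 45.3 CPM with miR-125b and 41.0, 24.7 and 35.0 in control, again higher in 3 of 3 pairs. The difference was 0.34 ± 0.30 (edgeR adjusted p 1.00), and 0.35 ± 0.13 (adjusted p 0.418) with the block. In libraries labelled as day 13 under continued doxycycline it had 38.0, 26.3 and 43.8 CPM against 38.7, 26.5 and 47.7, and the difference was -0.064 ± 0.30. After withdrawal it had 48.2, 31.2 and 44.2 CPM against 30.6, 25.4 and 47.2, with 0.26 ± 0.30. The log2 ratios within pairs were thus 0.26, 0.43 and 0.37 on day 2, 0.52, 0.60 and 1.06 on day 10, -0.027, -0.014 and -0.12 on day 13, and 0.66, 0.29 and -0.096 after withdrawal. Averaged over the 4 conditions Pmaip1 was 0.33 ± 0.15 higher (edgeR adjusted p 0.398), with 0 members called (background 1.28%) and 1, Pmaip1, at an unadjusted p under 0.05 (12.1%; with the block 2, Pmaip1 and Bcl2l11, 19.6%). With the block it was 0.33 ± 0.064 higher (edgeR adjusted p 0.00307), the 1 member called of 10 (background 6.39%). That blocked call held without replicate number 1, 2 or 3 (0.33, 0.33 and 0.34, edgeR adjusted p 0.0134, 0.0464 and 0.0251). It was not made by DESeq2 (0.33, adjusted p 0.301), nor by edgeR on each replicate's counts summed over the 4 conditions (0.34 ± 0.24, adjusted p 1.00), a fit without the block that called 0 genes in all.

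**Figure D5:**
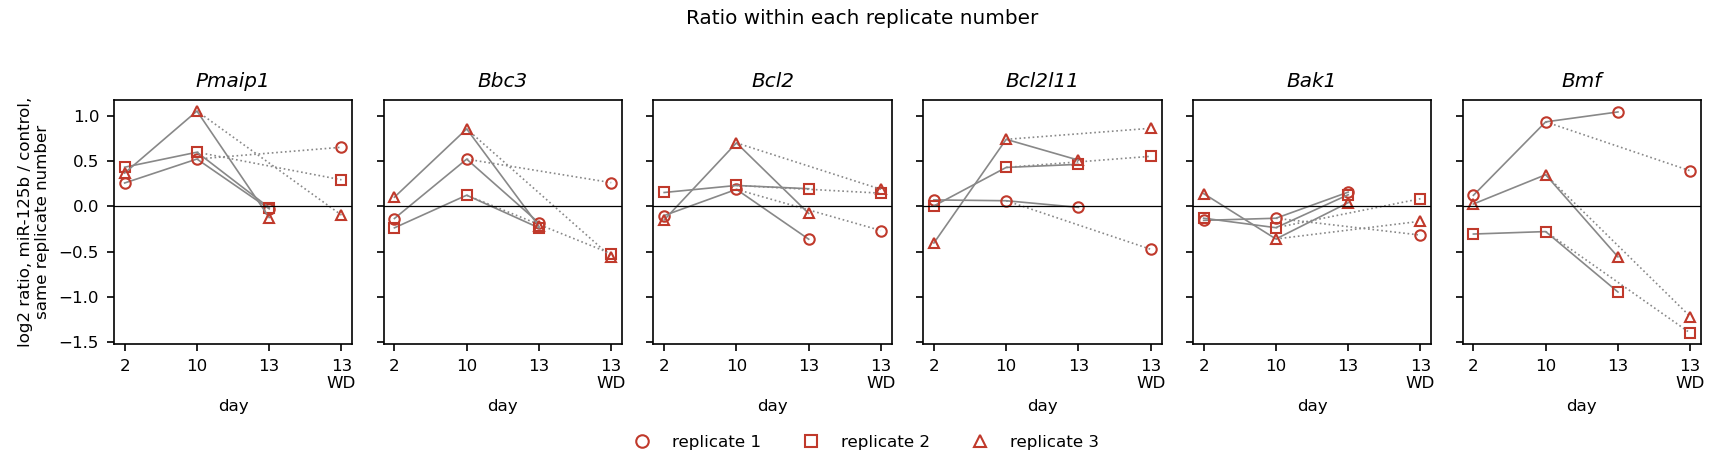
Log2 ratio of miR-125b to control within each replicate number for 6 members, by day, with solid lines to day 13 with continued doxycycline and dotted lines to day 13 after withdrawal. The 3 ratios of Pmaip1 lie between 0.52 and 1.06 on day 10 and between -0.12 and -0.014 on day 13 with continued doxycycline.

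Bbc3, the gene of PUMA, had 150.2, 127 and 237 CPM with miR-125b on day 10 and 104, 116 and 131 in control. It was higher in 3 of 3 pairs but the groups overlapped by 1 library on each side. The log2 fold change of 0.55 ± 0.27 (edgeR adjusted p 0.295) rested in part on miR-125b replicate 3, without which it was 0.24 ± 0.27. With the block it was 0.52 ± 0.17 (adjusted p 0.0632). On day 2 Bbc3 differed by -0.078 ± 0.27. With continued doxycycline on day 13 it differed by -0.22 ± 0.27 and was lower in 3 of 3 pairs. The difference after withdrawal was -0.34 ± 0.27. It was -0.59 ± 0.25 (edgeR adjusted p 0.336) without control replicate 1 of that group, which had 71.7 CPM beside 131 and 150. None of these passed the test.

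Bcl2l11 had 29.97, 20.6 and 32.1 CPM with miR-125b on day 10 against 28.7, 15.2 and 19.1 in control, a difference of 0.39 ± 0.35. It was higher in 3 of 3 pairs, and replicate 1 showed almost no difference (log2 ratio 0.063). After withdrawal it had 24.4, 20.1 and 31.4 CPM against 33.9, 13.7 and 17.2, so replicate 1 went down and the other pairs up, and the difference was 0.23 ± 0.35. Leaving out replicate number 1 in the blocked fit gave 0.73 ± 0.15 (adjusted p 0.0156) after withdrawal and 0.41 ± 0.074 (adjusted p 0.00460) over the 4 conditions. With all 3 numbers these were 0.32 ± 0.18 (0.425) and 0.23 ± 0.092 (0.148).

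Bmf, whose protein is held at the cytoskeleton until stress frees it, has the most seed matches and the lowest counts. After withdrawal it had 5.47, 1.63 and 3.84 CPM with miR-125b and 4.13, 4.49 and 9.08 in control. Replicates 2 and 3 were lower with miR-125b and replicate 1 was higher, and the groups overlapped. The difference was -0.70 ± 0.51 (edgeR adjusted p 0.751), with a 95% interval of -1.76 to 0.37. In the blocked fit it was -0.75 ± 0.39 (adjusted p 0.357). Without replicate number 1, the pair that went the other way, the blocked value was -1.31 ± 0.32 (adjusted p 0.0403). That fit was not planned and called 447 genes, and without number 2 or number 3 Bmf was not called. On day 13 with continued doxycycline the pair ratios spread from -0.95 to 1.05, and on day 2 and day 10 the differences were -0.011 ± 0.50 and 0.40 ± 0.50. Averaged over the 4 conditions the interval ran from -0.65 to 0.41.

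Bid had the narrowest range of differences over the 4 conditions among the BH3-only genes. They lay between -0.10 ± 0.14 on day 10 and 0.15 ± 0.14 on day 2, and the level stayed within 70.4 to 109 CPM over the 24 libraries.

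The miR-125b effect of the members was then compared between times and treatments. The interaction with time, day 10 less day 2, called 0 members and 0% of genes with and without the block, with 0 members at an unadjusted p under 0.05 without the block (6.86% of genes) and 3 with it (12.0%, Bcl2, Bbc3 and Pmaip1), and the largest member value was 0.63 ± 0.38 for Bbc3 (edgeR adjusted p 0.769). The interaction with withdrawal also called 0 members and 0% of genes in both fits, with 0 members at an unadjusted p under 0.05 without the block (1.68%) and 0 with it (3.26%), and the member with the lowest unadjusted p was Bak1 at -0.25 ± 0.13 (p 0.0760, edgeR adjusted p 1.00). The difference between day 13 with continued doxycycline and day 10 was added after the values had been seen. It called 0 members without the block (background 0.0224%) and 1 with it (3.85%), and 1 member, Bak1, lay at an unadjusted p under 0.05 (14.6%; with the block 4, Bak1, Bcl2, Bbc3 and Pmaip1, 22.2%). DESeq2 called 0 members in these 3 comparisons. The member called with the block was Pmaip1, at -0.83 ± 0.43 (edgeR adjusted p 0.387) and, with the block, -0.80 ± 0.18 (adjusted p 0.0257). The blocked call did not hold without replicate number 1 (-0.90, adjusted p 0.113), number 2 (-0.87, 0.0908) or number 3 (-0.58, 0.416), nor without miR-125b replicate 3 of day 10 alone (-0.64, 0.111).

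A second question is how the members moved with time in each arm. These comparisons share the day 10 libraries with those above, so the values stand side by side and support nothing of each other. From day 2 to day 10 in the miR-125b arm 0 members were called without the block (background 0.224%) and 2 with it (4.08%), Bcl2 and Bbc3. DESeq2 called 0 members, and 3 members lay at an unadjusted p under 0.05 without the block (14.9%) and 7 with it (22.2%). In this comparison 9 of the 10 members had the same direction in 3 of 3 pairs (41.1% of genes), 5 of them higher and 4 lower. Bcl2 went from 67.8, 51.7 and 48.5 CPM to 104, 74.5 and 112. The groups did not overlap, as for 19.0% of genes, and the log2 fold change was 0.79 ± 0.26 (edgeR adjusted p 0.161) or, with the block, 0.79 ± 0.12 (adjusted p 0.00287). That blocked call held without replicate number 1 (0.85, 0.00953) and number 2 (0.93, 0.0144) but not number 3 (0.57, 0.216), and it held without miR-125b replicate 3 of day 10 alone (0.64, 0.0352). Bbc3 went from 102, 89.6 and 124 CPM to 150.2, 127 and 237, also with no overlap, at 0.70 ± 0.27 (edgeR adjusted p 0.222) and 0.68 ± 0.17 (adjusted p 0.0354) with the block. Without miR-125b replicate 3 of day 10 the blocked value was 0.55 (adjusted p 0.229).

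In the control arm 0 members were called from day 2 to day 10 in either fit (background 0% without and 0.149% with the block) or by DESeq2, and 0 lay at an unadjusted p under 0.05 without the block (6.75%) and 2 with it (11.7%, Bax and Bcl2). Bcl2 had 72.7, 46.4 and 53.8 CPM on day 2 and 91.6, 63.4 and 68.7 on day 10, higher in 3 of 3 pairs (37.7% of genes had 1 direction), at 0.37 ± 0.26. Bax had 214, 233 and 193 CPM and then 249.6, 269 and 286, with no overlap between the groups (14.6% of genes), at 0.33 ± 0.16 (edgeR adjusted p 0.759).

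From day 10 to day 13 with continued doxycycline in the miR-125b arm 0 members were called without the block (background 3.53%) and 2 with it (13.4%), Bbc3 and Pmaip1, both lower. At an unadjusted p under 0.05 there were 3 members without the block (20.5%) and 4 with it (29.7%), and 7 had the same direction in 3 of 3 pairs (54.2%). Bbc3 went from 150.2, 127 and 237 CPM to 76.7, 94.7 and 134, at -0.75 ± 0.27 (edgeR adjusted p 0.112) and -0.75 ± 0.17 (adjusted p 0.0105) with the block. DESeq2 called it too (-0.75, adjusted p 0.0477), among 1037 genes called. Pmaip1 was at -0.68 ± 0.30 (edgeR adjusted p 0.207) and -0.66 ± 0.13 (adjusted p 0.00421) with the block. Without miR-125b replicate 3 of day 10 neither blocked call held, with -0.62 (adjusted p 0.0829) for Bbc3 and -0.51 (adjusted p 0.0559) for Pmaip1. Bax, at 280, 265 and 288 CPM on day 10 and 202, 197 and 234 on day 13, did not overlap, with -0.40 ± 0.16 (edgeR adjusted p 0.168) and, with the block, -0.40 ± 0.13 (adjusted p 0.0508). In all 3 members did not overlap (26.7% of genes), and the other two, Bak1 and Mcl1, were higher on day 13. Bak1 had 114, 109 and 106 CPM and then 121, 120.5 and 131, at 0.18 ± 0.095 (edgeR adjusted p 0.290), and Mcl1 had 164, 172 and 154 CPM and then 176, 188 and 186, at 0.17 ± 0.10. Between the same libraries the mean summed neutrophil lineage markers went from 63.9 to 31.7 CPM, the erythroid markers from 376 to 558 and the megakaryocyte markers from 4838 to 3850, and their part in these values was not tested. In the control arm 0 members were called in either fit (background 0.0224% and 0.0373%) or by DESeq2, and 0 did not overlap (9.55%). At an unadjusted p under 0.05 there were 0 without the block (3.51%) and 2 with it (6.39%, Bax lower and Bcl2 higher). Bax fell in 3 of 3 pairs in control too, from 249.6, 269 and 286 CPM to 189, 219 and 252 (DESeq2 log2 fold change -0.29 ± 0.17). Bbc3 and Pmaip1 differed by 0.015 ± 0.27 and 0.15 ± 0.30 in control.

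Withdrawal was compared with continued doxycycline on day 13 in each arm, and 0 members were called in either arm and either fit. The background was 0% without the block, and 0.0522% in the miR-125b arm and 0.00745% in the control arm with it. At an unadjusted p under 0.05 the counts were 0 members in both arms without the block, where 2.21% and 2.65% of genes lay. With the block they were 0 with miR-125b (4.75%) and 1 in control (4.53%, Bcl2l1), and there were 0 by DESeq2 at an adjusted p under 0.05. In the miR-125b arm Bak1 was lower after withdrawal with no overlap, at 116, 112 and 117 CPM against 121, 120.5 and 131 (9.02% of genes did not overlap), and the difference was -0.11 ± 0.095. In the control arm the groups of 0 members were without overlap (5.02%). The same direction in 3 of 3 pairs was seen for 5 members in the miR-125b arm (32.6%) and 3 in the control arm (28.1%). Arid3a, read in the same libraries, differed by -0.74 ± 0.16 in the miR-125b arm (edgeR adjusted p 0.372) and by 0.19 ± 0.16 in the control arm (adjusted p 1.00).

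The other genes of the apoptosis pathway were taken from whole lists, which were drawn up with earlier results of these data known. Of 15 other BCL2 family genes, 8 had enough counts to be tested. In the comparison of miR-125b with control on day 10, 0 of the 8 were called without the block and 2 with it (8.63% of all genes), both higher, and 2 lay at an unadjusted p under 0.05 (17.4%). They were Bnip3 (0.95 ± 0.27, edgeR adjusted p 0.0883, and 0.0410 with the block) and Bnip3l (0.33 ± 0.11, 0.120 and 0.0494), which act in mitochondrial clearance. Of 10 genes of the p53 axis, 2 rose on day 10 and 0 fell, where 0.872% of all genes were called. At an unadjusted p under 0.05 there were 7 of the 10 (17.4% of all genes). Cdkn1a, the cell cycle inhibitor p21, was at 275 ± 130 CPM with miR-125b and 139 ± 14.2 in control (SD, n = 3), at 0.99 ± 0.23 (edgeR adjusted p 0.0471). Phlda3, an inhibitor of AKT, was at 63.1 ± 25.6 against 29.9 ± 1.71 CPM, at 1.07 ± 0.24 (edgeR adjusted p 0.0443). With the block Zmat3 was called as well (0.84, adjusted p 0.00319). Of 7 death receptor genes, 2 lay at an unadjusted p under 0.05. The 1 that was called rose, Tnfrsf10b, the mouse TRAIL receptor, at 4.72 to 11.8 CPM against 2.31 to 3.74 (1.35 ± 0.29, edgeR adjusted p 0.0343). Each of these 3 calls held in 1 of the 6 fits that left out 1 day 10 library, the one without miR-125b replicate 2. The folds moved most without miR-125b replicate 3, the library that is also highest for Pmaip1 and Bbc3, where they were 0.54 for Cdkn1a, 0.69 for Phlda3 and 0.94 for Tnfrsf10b (edgeR adjusted p 0.352, 0.346 and 0.304).

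Of 14 genes of the apoptosome, caspases and released factors, 0 were called on day 10 without the block (3 at an unadjusted p under 0.05) and 2 with it, both lower, beside 17.4% of all genes at that unadjusted p and 8.63% called with the block. The latter were Cycs, the cytochrome c gene (-0.39, adjusted p 0.0282), and Dffa, the inhibitor of the apoptotic nuclease (-0.45, adjusted p 0.0248). The lists of 5 inhibitors of apoptosis and of 10 turnover and mitochondrial partners had 0 calls on day 10 in either fit, with 0 and 1 genes at an unadjusted p under 0.05. Of 15 upstream regulators 0 were called without the block (2 at an unadjusted p under 0.05) and 1 with it, Myc (-0.47, adjusted p 0.0261), against the same background of 8.63%. Averaged over the 4 conditions, where 1.28% of all genes were called, Dffa fell (-0.27 ± 0.066, edgeR adjusted p 0.0481), and Tnfrsf10b (0.58 ± 0.14, 0.0485) and Btrc, which codes for a subunit of a ubiquitin ligase (0.21 ± 0.051, 0.0413), rose. These calls were lost in most of the 24 fits that left out 1 library and held in 3 for Dffa, 2 for Tnfrsf10b and 4 for Btrc, though the folds stayed between -0.30 and -0.23, 0.48 and 0.65, and 0.19 and 0.23. With the block, where 6.39% of all genes were called, Casp6 (-0.23, adjusted p 0.0342), a caspase, was called lower and Zmat3 (0.28, 0.0276) and Phlda3 (0.42, 0.0102) higher. After withdrawal the block called 1 listed gene (1.86% of all genes), Trp53inp1, a p53 target (-0.88, adjusted p 0.0351), and 0 were called without it (0.119%). The median of the p53 axis list was 0.38 on day 10, beside 0.0042 over all genes, and -0.053 after withdrawal, beside -0.012.

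From day 10 to day 13 with continued doxycycline in the miR-125b arm, 3 of 10 p53 axis genes fell, where 3.53% of all genes were called, Cdkn1a (-1.12 ± 0.23, edgeR adjusted p 0.0203), Phlda3 (-1.02 ± 0.24, 0.0325) and Zmat3 (-0.85 ± 0.22, 0.0410), and Tnfrsf10b fell by 1.06 ± 0.28 (0.0444). In the same comparison Cycs (0.43 ± 0.12, 0.0448), Aifm1, which codes for a flavoprotein released from mitochondria (0.31 ± 0.077, 0.0346), and Opa1, which shapes the inner membrane (0.32 ± 0.080, 0.0346), rose. All 7 calls were lost without miR-125b replicate 3 of day 10 (edgeR adjusted p 0.140 to 0.299), and each held in 1 or 2 of the 6 fits that left out 1 library. Without that library the folds of Cycs (0.40), Aifm1 (0.25) and Opa1 (0.31) stayed near their size, while Cdkn1a (-0.67), Phlda3 (-0.63), Zmat3 (-0.52) and Tnfrsf10b (-0.65) were smaller. With the block, where 13.4% of all genes were called, Dffa (0.45), Ripk1 (0.50) and Myc (0.38) were also called higher and Fas (-0.85), Trp53inp1 (-0.67), Ddit3 (-0.68) and E2f1 (-0.30) lower (adjusted p 0.0178 to 0.0473). From day 2 to day 10 in the miR-125b arm 0 listed genes were called without the block (0.224% of all genes) and 4 with it (4.08%). All 4 were higher, Trp53inp1 (1.06), Tnfrsf10b (1.01), Cdkn1a (0.99) and Zmat3 (0.69). For the added difference of the miR-125b effect between day 13 and day 10, 0 were called without the block and 6 with it, where 3.85% of all genes were called. Cycs was higher (0.57) and Bnip3 (-1.48), Bnip3l (-0.53), Cdkn1a (-1.27), Zmat3 (-0.97) and Phlda3 (-1.17) were lower (adjusted p 0.0182 to 0.0441).

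For each member the gene with the most similar pattern over the 24 libraries was sought among 9846 genes with an average log2 CPM of at least 2, as a description. The 24 libraries share replicate numbers and groups. Pmaip1 was nearest to Rarg (Pearson r 0.93), Bcl2l11 to Bcl11a (0.91), Bax to Myl12b (0.91), Bcl2 to Eif4b (0.89) and Bak1 to Sephs2 (0.89). Bmf was nearest to Cerk (0.85), Bbc3 to Dnase1l1 (0.84), Bid to Ankrd10 (0.84), Bcl2l1 to Slc35c2 (0.83) and Mcl1 to Ube2q1 (0.82). After the means of the groups and replicate numbers were taken out, r was 0.67 for Pmaip1 and Rarg, 0.61 for Bcl2 and Eif4b and 0.61 for Bcl2l1 and Slc35c2, and 0.74 to 0.91 for the other 7 pairs. Within the family the highest r over the 24 libraries were 0.75 for Bcl2 with Bcl2l11 and 0.70 for Bax with Bbc3, and the lowest were -0.48 for Mcl1 with Bcl2l11 and -0.48 for Mcl1 with Bcl2.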

How the data were processed

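Standard Illumina libraries were made from column-purified RNA, per the labels' protocols. The deposited table holds whole-number read counts per Ensembl gene for 24 libraries. The authors used fastp, HISAT2 2.0.5 and featureCounts with mm10, per the submitters' processing notes; annotation release and strand use are not given in the sources used here. Of 47069 identifiers, 46488 were matched to a GENCODE M21 name, and 0 columns were left unmatched.

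The members, gene lists and comparisons were chosen with earlier results of these data known. One edgeR 4.0.16 quasi-likelihood fit (R 4.3.3, robust, TMM, filterByExpr) covered all 24 libraries, with 16 residual degrees of freedom (14 with the block) and two-sided tests. Calls were made at an adjusted p (Benjamini-Hochberg, 13419 genes in each comparison) under 0.05. There were 14 comparisons, 1 of them added later. Standard errors were derived from the F statistic. The script was tested on simulated data, for the day 10 comparison without the block. The simulated libraries shared no spread within a replicate number, so that test does not cover the shared spread seen here. Same-numbered libraries of different groups deviated together (84 of 84 pairs with r over 0.1, 0.163 to 0.781), so the numbers were taken to pair the libraries. The labels do not say what a number shares. All members were named, along with up to 3 genes called of each list and comparison, Arid3a, the nearest gene of each member, and, chosen after their values were seen, list genes called with the block alone. Alternatives were DESeq2 1.42.0, other scaling and filters, fits of the compared groups alone, and fits without 1 library.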

Additional observations from a re-analysis of the deposited data

Results flagged for a closer look

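For Pmaip1 the log2 difference of the miR-125b effect between day 13 with continued doxycycline and day 10 was -0.83, past the threshold with the replicate block (-0.80, edgeR adjusted p 0.0257) and not without it (0.387) or with DESeq2 (-0.83, adjusted p 0.298). The blocked call was lost in each of the 4 fits that left out replicate number 1, 2 or 3 or miR-125b replicate 3 of day 10 (adjusted p 0.113, 0.0908, 0.416 and 0.111), and the comparison was added after the values were seen. Pmaip1 was also higher with miR-125b in 3 of 3 pairs on day 2 (log2 fold change 0.34) and lower in 3 of 3 pairs on day 13 with continued doxycycline (-0.064 ± 0.30), and that difference was not tested. The day 13 value ran from -0.26 to 0.14 over the 6 fits that left out 1 library, and it was 0.14 without control replicate 3.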

How the results depend on the processing

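Counts of calls are at an adjusted p under 0.05, over all genes and, where named, over the 10 members. They were 117 genes for miR-125b against control on day 10, 16 after withdrawal, 172 for the mean of the 4 conditions, 30 from day 2 to day 10 and 474 from day 10 to day 13 with miR-125b, 3 from day 10 to day 13 in control, 3 for the added difference between day 13 and day 10, and 0 elsewhere. With the replicate block they were 1158 on day 10 (2 members), 2 with continued doxycycline, 249 after withdrawal, 858 for the mean (1 member), 7 and 1 for withdrawal against continued doxycycline with miR-125b and in control, 547 (2 members) and 20 from day 2 to day 10, 1800 (2 members) and 5 from day 10 to day 13, and 517 (1 member) for the added difference. The block changed no other call of a member. DESeq2 gave 3 on day 2, 576 on day 10, 3 and 102 on day 13 with continued doxycycline and after withdrawal, 357 for the mean, 7 and 8 for withdrawal against continued doxycycline, 324 and 62 from day 2 to day 10, 1037 (1 member, Bbc3) and 23 from day 10 to day 13, and 327 for the added difference.

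With no filter on low counts there were 65 on day 10, 10 after withdrawal, 18 and 1 from day 2 to day 10 and 267 from day 10 to day 13 with miR-125b. A stricter filter gave 58 from day 2 to day 10 with miR-125b. Fitting the compared groups alone gave 0 on day 10, 0 after withdrawal, 4 from day 2 to day 10 and 2 from day 10 to day 13 with miR-125b, 0 from day 10 to day 13 in control and 0 for the added difference, and summing each replicate's counts over the 4 conditions gave 0 for the mean. Those fits have fewer residual degrees of freedom. Leaving out 1 library gave 1 to 799 genes on day 10 (1 without control replicate 1), 5 to 15 after withdrawal, 81 to 260 for the mean, 4 to 241 and 0 to 8 from day 2 to day 10, 0 to 1083 and 0 to 2 from day 10 to day 13 (0 without miR-125b replicate 3 of day 10), 0 to 409 for the added difference, 0 to 0 for the other comparisons, and 0 to 0 members in all of them.

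In the fits with the replicate block that left out all libraries of a number, without replicate 1, 2 or 3, the day 10 genes were 0 at the lowest and 1490 at the highest, with 1 member without replicate 1, 2 without replicate 2 and 0 without replicate 3. With continued doxycycline the genes were 2 without replicate 1 and 7 without replicate 2. After withdrawal they were 447 (2 members, Bcl2l11 and Bmf), 80 and 9. For the mean they were 719 (2 members), 854 (1 member) and 100 (1 member). From day 2 to day 10 they were 435 (3 members), 212 (1 member) and 2 with miR-125b, and 25 and 4 in control without replicates 1 and 2. From day 10 to day 13 they were 150 (1 member), 1154 (2 members) and 3 with miR-125b and 0 each time in control, and for the added difference 0, 236 and 0. With the block and without miR-125b replicate 3 of day 10, a fit chosen after seeing the data, they were 664 for the mean (1 member), 172 from day 10 to day 13 and 1 for the added difference, with 1 member on day 10 and 1 from day 2 to day 10. The cause of these differences was not tested. The direction turned once among values larger than their SE: Bak1 in control after withdrawal was -0.0090 with the block and without replicate 1, beside 0.14 ± 0.095 with all libraries. Another scaling moved the median of all genes by under 0.01 in log2.

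With 3 libraries a group, the 95% intervals of the day 10 log2 fold changes ran from -0.44 to -0.045 for Bak1 and from -0.65 to 1.45 for Bmf, the member with the lowest counts.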
